A study of Mus musculus with 4 samples.

Results

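This is an account of open chromatin at 8 genes of the phosphatidylinositol 3-kinase (PI3K) and AKT pathway in regulatory T (Treg) cells that received either normal or reduced interleukin-2 (IL-2) signals. The genes are Pik3cd and Pik3r1 (kinase subunits), Pik3ip1, Inpp5d, Phlpp1 and Tsc1 (brakes), and Akt1 and Sgk1 (downstream kinases). Every called ATAC-seq peak that touched a gene body or the 20 kb on either side was taken, peaks overlapping by at least 1 bp were joined, and 115 regions resulted, out of 272233 in the whole genome. The rule that picked the regions used no measured value, but the genes were chosen with earlier results of these data known. ATAC-seq reads out open chromatin by a transposase that inserts sequencing adapters into accessible DNA.

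Treg cells were sorted as RFP+ cells, 50000 per library, from lymph nodes (LNs) of naive female C57BL/6 mice aged 6 to 8 weeks. All mice carried the Foxp3-RFP reporter, and they were either WT or Il2ramut/mut, with 2 mice and 2 libraries of each genotype. The Il2ramut/mut allele is a spontaneous missense change in CD25, the alpha chain of the IL-2 receptor, that arose in a Ccr2-/- colony and lowers CD25 at the cell surface. It is present in every cell of the mouse, not only in Treg cells, and it reduces IL-2 signals without deleting the receptor.

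The libraries held 112569 and 126761 peaks in WT and 122776 and 142732 in Il2ramut/mut. Total read numbers are not in the peak lists, so the depth is unknown, but the fold enrichment of every peak below 100 could be turned back into whole reads at the summit, with a lowest value of 5 reads in 3 libraries and 6 in Il2ramut/mut replicate 1. A region without a called peak may therefore still hold a few reads. Of the promoters of 8 Treg and CD4 T cell markers, all were called in the 4 libraries, and none of the promoters of 4 B cell, 4 myeloid and 2 NK cell markers was called in any. Cd8b1, but not Cd8a, and Col1a1 and Pecam1 were also called at their promoters in all 4 libraries, Cdh5 in 1 library and Pdgfrb in none.

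PI3K delta, built from the catalytic subunit that Pik3cd encodes and the regulatory subunit that Pik3r1 encodes, adds a phosphate to a membrane lipid, and the product recruits AKT to the membrane, where AKT is switched on. AKT keeps FOXO transcription factors out of the nucleus and relieves the TSC complex's block on mTOR, while SGK1 is a related kinase that also acts on FOXO. Treg cells are known for low PI3K-AKT activity after IL-2 binding, with most of the signal passing through STAT5, and their identity depends on nuclear FOXO proteins.

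The sequences below are from the reference genome (GRCm38, RefSeq, the coordinates of mm10), with 100 bases on either side of the summit, for 10 regions on which the results turn. The first shown for Pik3cd, Pik3ip1, Inpp5d and Phlpp1 is the most accessible region of that gene. The second of Pik3ip1 and of Inpp5d had the lowest p values in the genotype comparison. The second of Phlpp1 was the only region called in both Il2ramut/mut libraries and neither WT library. That of Pik3r1 was 1 of 8 called in both WT libraries and neither Il2ramut/mut library, and the only 1 of these with a STAT5 word. Those of Sgk1 were unique to WT (gene start) and to Il2ramut/mut (intron) by a reproducibility test. Capitals mark matches to 6 words, on either strand: TTCNNNGAA (STAT5), GTAAACA (FOXO), GGGNGTGG (KLF), TGTGGT (RUNX), CCGGAAG (ETS) and TGANTCA (AP-1).
Pik3cd 44.4 kb downstream of the gene start, chr4:149658084-149658284, plus strand: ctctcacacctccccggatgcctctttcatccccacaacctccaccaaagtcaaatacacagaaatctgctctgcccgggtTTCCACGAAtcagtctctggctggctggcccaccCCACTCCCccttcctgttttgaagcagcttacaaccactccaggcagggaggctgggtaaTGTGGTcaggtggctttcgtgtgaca
Pik3ip1 2.0 kb downstream of the gene start, chr11:3332328-3332528, plus strand: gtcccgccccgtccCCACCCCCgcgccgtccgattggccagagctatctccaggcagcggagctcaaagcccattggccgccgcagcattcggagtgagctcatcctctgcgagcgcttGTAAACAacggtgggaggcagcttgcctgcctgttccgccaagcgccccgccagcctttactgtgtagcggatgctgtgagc
Pik3ip1 5.6 kb downstream of the gene start, chr11:3335894-3336094, plus strand: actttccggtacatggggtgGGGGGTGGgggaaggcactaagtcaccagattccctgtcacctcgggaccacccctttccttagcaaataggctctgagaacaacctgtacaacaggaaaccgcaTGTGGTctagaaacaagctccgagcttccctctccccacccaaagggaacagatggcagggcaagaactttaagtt
Inpp5d 6.3 kb downstream of the gene start, chr1:87626472-87626672, plus strand: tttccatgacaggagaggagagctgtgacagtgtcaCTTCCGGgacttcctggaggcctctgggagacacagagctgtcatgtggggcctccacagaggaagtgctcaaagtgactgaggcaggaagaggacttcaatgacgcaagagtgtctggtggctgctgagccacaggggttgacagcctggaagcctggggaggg
Inpp5d 12.5 kb upstream of the gene start, chr1:87607667-87607867, plus strand: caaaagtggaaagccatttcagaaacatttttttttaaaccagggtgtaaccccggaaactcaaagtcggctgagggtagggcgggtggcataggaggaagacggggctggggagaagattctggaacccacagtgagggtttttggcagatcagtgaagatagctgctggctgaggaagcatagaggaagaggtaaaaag
Phlpp1 0.3 kb upstream of the gene start, chr1:106171362-106171562, plus strand: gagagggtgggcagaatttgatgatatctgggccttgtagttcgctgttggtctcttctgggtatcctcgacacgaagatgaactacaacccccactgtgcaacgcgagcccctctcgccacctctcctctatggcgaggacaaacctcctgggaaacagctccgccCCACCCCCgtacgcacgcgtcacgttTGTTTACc
Phlpp1 145.3 kb downstream of the gene start, chr1:106316953-106317153, plus strand: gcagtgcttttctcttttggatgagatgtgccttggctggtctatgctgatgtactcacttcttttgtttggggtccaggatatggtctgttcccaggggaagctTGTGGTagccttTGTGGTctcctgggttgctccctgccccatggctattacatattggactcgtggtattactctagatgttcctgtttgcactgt
Pik3r1 49.3 kb downstream of the gene start, chr13:101718845-101719045, plus strand: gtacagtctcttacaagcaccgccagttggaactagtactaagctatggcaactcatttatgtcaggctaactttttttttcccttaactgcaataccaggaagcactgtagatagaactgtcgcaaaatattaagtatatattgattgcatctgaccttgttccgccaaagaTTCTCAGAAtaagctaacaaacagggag
Sgk1 0.1 kb downstream of the gene start, chr10:21882220-21882420, plus strand: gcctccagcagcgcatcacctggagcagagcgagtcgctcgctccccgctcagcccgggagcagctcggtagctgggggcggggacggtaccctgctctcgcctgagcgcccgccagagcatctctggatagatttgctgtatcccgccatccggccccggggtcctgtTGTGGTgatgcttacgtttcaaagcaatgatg
Sgk1 93.4 kb downstream of the gene start, chr10:21975442-21975642, plus strand: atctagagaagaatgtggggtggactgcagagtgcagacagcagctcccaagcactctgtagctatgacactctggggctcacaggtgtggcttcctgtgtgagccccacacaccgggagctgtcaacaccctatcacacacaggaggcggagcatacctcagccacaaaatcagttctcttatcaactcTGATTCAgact

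Among the 10 windows, that of Pik3cd held a STAT5, a KLF and a RUNX word and that of Pik3r1 a STAT5 word. The first windows of Pik3ip1 and of Phlpp1 each held a FOXO and a KLF word. The second window of Pik3ip1 held a KLF and a RUNX word, the first of Inpp5d an ETS word, and the second of Inpp5d none of the 6. Both Sgk1 windows held 1 word each, RUNX at the gene start and AP-1 in the intron, and the second Phlpp1 window held the RUNX word at 2 positions. Over the 48 regions at the 8 loci that were called in all 4 libraries, the KLF word was in 9 (18.8%), against 10.8% of 38281 such regions on the assembled chromosomes. The RUNX word was in 12 (25.0%, against 19.2%), the FOXO word in 3 (6.25%, against 2.73%), and the STAT5, ETS and AP-1 words in 2 each (4.17%, against 5.92%, 6.79% and 8.00%). Of the 8 regions called in WT only, 1 held the STAT5 word and 1 the RUNX word. The median GC content of the windows was 53.2% at the 8 loci and 52.2% in the genome. These matches are a description of letters and show no binding.

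The first question was which regions were called in which libraries. At the 8 loci, 48 of 115 regions (41.7%) were called in all 4 libraries, against 14.1% of all merged regions and 19.1% of the 158384 regions within 20 kb of a protein-coding gene. Another 16 (13.9%, against 8.11% of all merged regions) were called in 3 libraries and 7 (6.09%, against 10.2%) in 1 library of each genotype. A single library held 35 (30.4%, against 61.3%). Called in both WT libraries and neither Il2ramut/mut library were 8 regions (6.96%), against a background of 2.70% of all regions and 2.89% near protein-coding genes. The opposite pattern was seen at 1 region (0.870%), against 3.56% and 3.21%. These shares have unlike bases, since single-library regions made up 30.4% at the 8 loci and 61.3% in the genome. More single-library regions in the base lower the share of every other pattern. Of the 8 regions, 3 lay in a gene body, where they made up 3.66% of 82 regions, and with flanks of 5 kb the share was 4.26% of 94, so that the gap to the genome was smaller than with 20 kb.

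**Figure D1:**
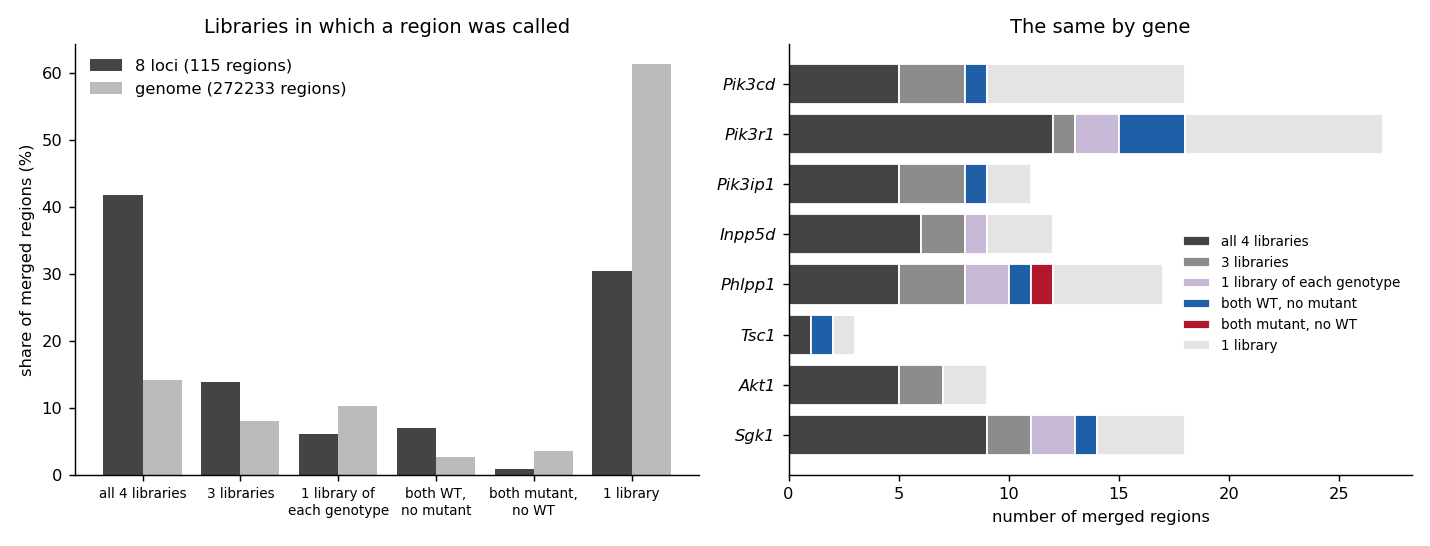
Left, share of merged regions (y axis, %) by the libraries in which they were called (x axis), at the 8 loci (dark bars) and in the genome (light bars). Right, number of regions of each kind by gene (x axis, stacked bars). Regions called in both WT libraries only made up 6.96% at the 8 loci against 2.70% in the genome, and they were spread over 6 genes. The only region called in both Il2ramut/mut libraries alone was at Phlpp1. Regions called in a single library made up 30.4% at the 8 loci and 61.3% in the genome, so the other shares have unlike bases.

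These regions were weak. The 8 regions seen in WT only had 7 to 11 reads at the summit and stood between percentiles 26.6 and 71.3 of their library, while the 48 regions called everywhere had 5 to 208 reads with a median of 24. The share of the 115 regions called also differed between libraries of 1 genotype. It was 65.2% and 82.6% in WT and 54.8% and 64.3% in Il2ramut/mut, whereas over the genome it was 38.8% and 44.3% in WT and 42.5% and 49.4% in Il2ramut/mut. Both WT libraries thus held more of the 115 regions than either Il2ramut/mut library, while Il2ramut/mut replicate 2 held the largest share in the genome. Without WT replicate 2, regions called in WT alone made up 15.0% at the 8 loci against 18.0% in the genome, so that the order turned round, and 15 regions instead of 8 had that pattern. The count was 28 without WT replicate 1 (25.5% against 20.4%) and 16 without Il2ramut/mut replicate 2 (14.5% against 6.09%). Regions called in Il2ramut/mut alone numbered 7 without WT replicate 2 (7% against 7.42% in the genome), 2 without WT replicate 1 (1.82% against 5.81%), 8 without Il2ramut/mut replicate 1 (7.14% against 27.1%) and 4 without Il2ramut/mut replicate 2 (3.64% against 22.6%).

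The second question was whether the signal of the regions called in all 4 libraries differed between genotypes. Fold enrichments, which relate the reads at a summit to the background of the library, were compared on the log2 scale with limma after quantile normalization over 38426 regions. Before normalization, WT replicate 2 had the highest median log2 value over these regions, 3.41. It was 2.93 in WT replicate 1 and 3.09 and 3.13 in Il2ramut/mut. The fold enrichments given for single regions are not normalized and carry this shift. With 2 libraries against 2, a permutation test of a single value cannot go below p = 0.333, so limma's pooled estimate of the spread is what allows a test. None of the 48 regions passed an adjusted p of 0.05 in either direction, and neither did any region of the genome (0% for each direction). The genomic count depended on the scaling, at 318 regions with median scaling and 14 with no normalization, none of them at the 8 loci. At an unadjusted p under 0.05, 3 of 48 were lower and 0 higher in Il2ramut/mut, against 4.37% and 4.18% of all regions. The fitted difference was below 0, that is WT higher, at 33 of 48 regions (68.8%), against 49.4% in the genome. The median was -0.10 at the 8 loci and 0.0039 in the genome, while the standard errors of single regions ran from 0.10 to 0.49. In these bulk libraries, a less open site in every cell and fewer cells with an open site cannot be told apart.

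Ranks within each library were also compared. Both WT percentiles lay above both Il2ramut/mut percentiles at 9 of the 48 regions (18.8%), against 12.6% in the genome. The reverse held at 5 (10.4%), against 26.2%. A percentile moves with the length of the list, which was 112569 peaks in WT replicate 1 and 142732 in Il2ramut/mut replicate 2. With an equal number of peaks from each library, an alternative chosen after seeing the data, WT was higher at 15 regions (31.3%, against 20.2%) and Il2ramut/mut at 4 (8.33%, against 19.9%), so that the genome no longer favoured Il2ramut/mut. All 9 regions with WT higher kept that order, and the promoter of the long Pik3r1 transcript lost the reverse order. Another view used reproducible open chromatin regions (OCRs), which are regions with a peak in both libraries of a genotype and an irreproducible discovery rate (IDR) of at most 0.05. There were 42 OCRs in WT and 39 in Il2ramut/mut at the 8 loci, of which 7 (16.7%) and 4 (10.3%) overlapped no OCR of the other genotype, against 16.6% and 15.6% of all OCRs. In WT this share was that of the genome. All 11 lay in regions where the other genotype also had a called peak in at least 1 library, and 8 of them in regions called in all 4, so they mark a difference in rank or reproducibility and not the presence of a peak in 1 genotype alone.

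**Figure D2:**
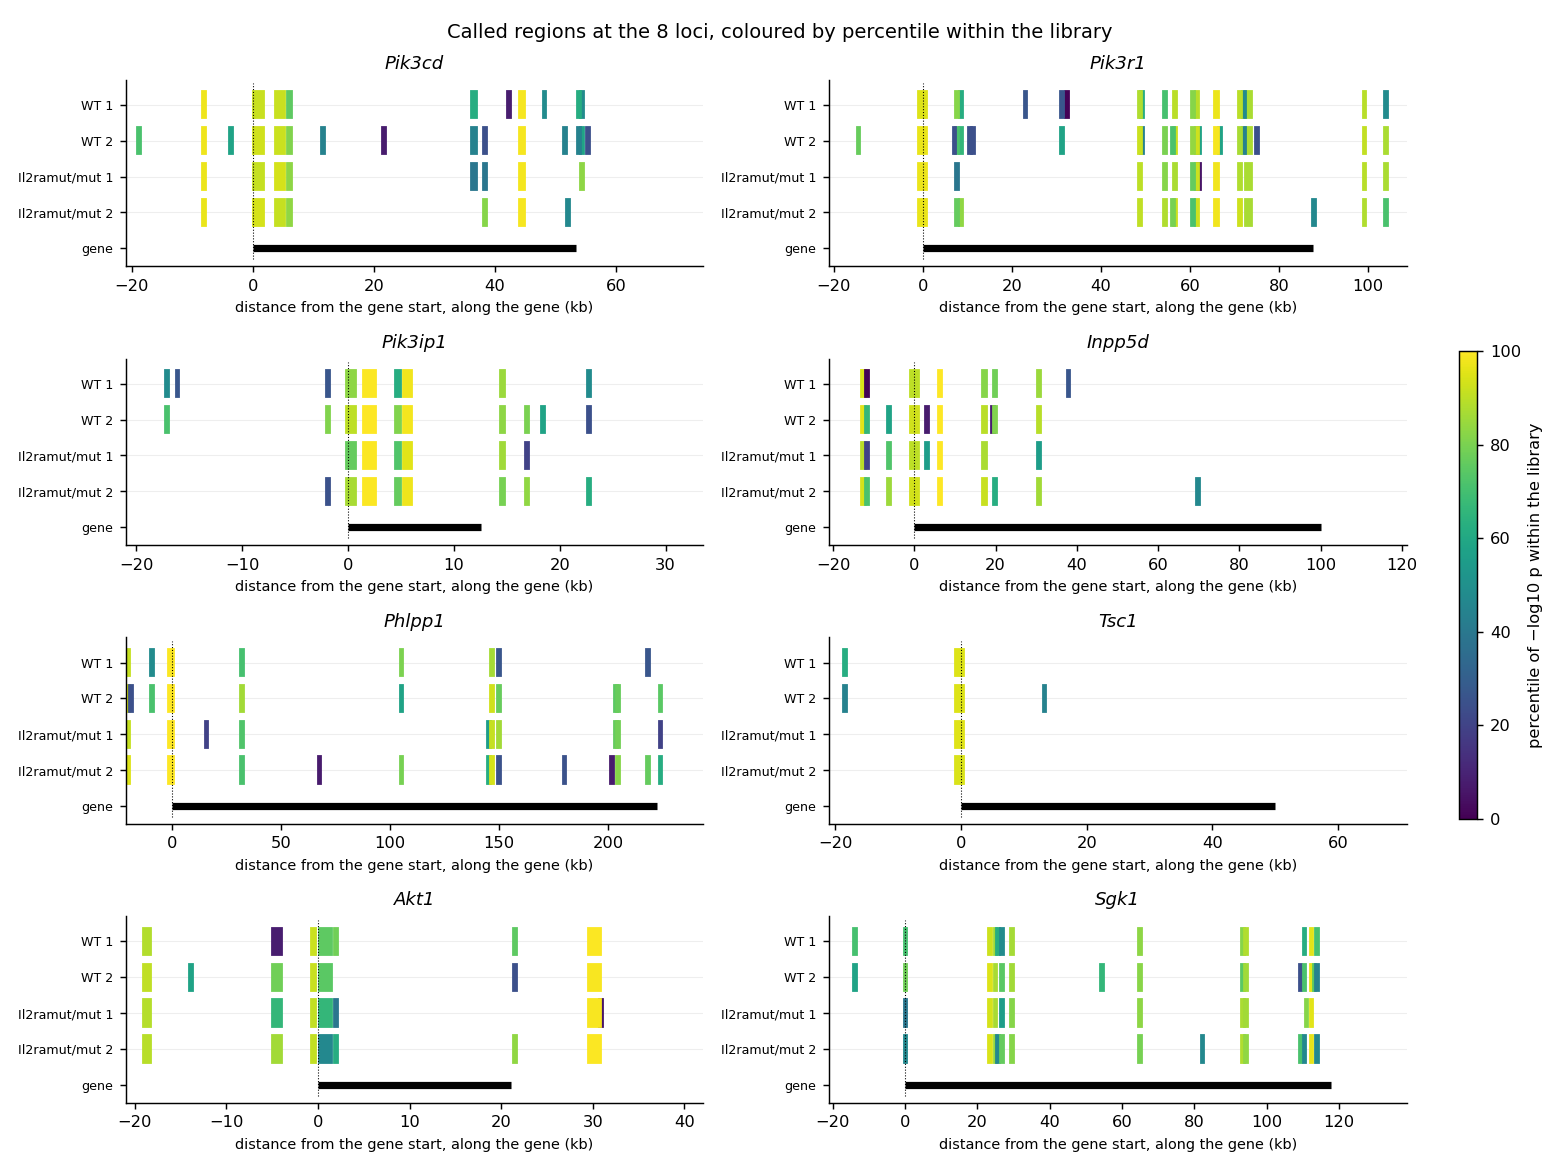
Regions called in each library (rows) at the 8 loci, by distance of the summit from the gene start in the direction of transcription (x axis, kb), with the gene body as a black bar and 20 kb on either side. Colour gives the percentile of −log10 p within the library, and narrow regions are drawn at a minimum width. The brightest regions, such as those 2.0 kb inside Pik3ip1, at the Phlpp1 start and in the first intron of Inpp5d, were present in all 4 rows.

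Pik3cd encodes the catalytic subunit of PI3K delta, the form that prevails in leukocytes, and lies on the minus strand of chromosome 4 (149649168 to 149702571). It had 18 regions, 5 of them in all 4 libraries and 9 in a single one. The most accessible was inside the gene, in intron 8 (chr4:149657736-149658713), 44.4 kb from the gene start. There, fold enrichment was 41.5 and 57.6 in WT and 44.0 and 46.7 in Il2ramut/mut, the −log10 p was 124 and 188 in WT and 146 and 148 in Il2ramut/mut, and the percentile was 98.5 and 98.6 in WT and 98.3 and 98.6 in Il2ramut/mut. The 4 libraries were close in rank, and the fitted difference was -0.11 (SE 0.11, limma adjusted p = 0.773). A region 8.1 kb upstream (chr4:149710441-149710986) came next. Its fold enrichment was 32.4 and 44.5 in WT and 34.1 and 30.6 in Il2ramut/mut, and its percentiles of 97.4 and 97.5 in WT and 97.1 and 96.8 in Il2ramut/mut left the genotypes without overlap, WT being higher, with a fitted difference of -0.22 (SE 0.14, limma adjusted p = 0.672). This gap was small and did not pass the test.

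Regions near the Pik3cd start sites were intermediate. The one closest to the gene start (chr4:149701385-149703310) had a fold enrichment of 15.2 and 22.7 in WT and 15.3 and 18.5 in Il2ramut/mut. The next, at an alternative start 4.5 kb further in (chr4:149697577-149699281), had 15.2 and 20.2 in WT and 20.2 and 13.6 in Il2ramut/mut. WT and Il2ramut/mut overlapped at both, with fitted differences of -0.09 (SE 0.19, limma adjusted p = 0.904) and -0.02 (SE 0.23, limma adjusted p = 0.988). A further promoter region inside the gene was called in 3 libraries, with 7 reads in WT replicate 2 and 9 and 13 in Il2ramut/mut. The only region called in WT alone was downstream, in the body of the neighbour Clstn1 (chr4:149648544-149648854), with 9 and 8 reads. No OCR at Pik3cd was unique to a genotype.

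Pik3r1 encodes the regulatory subunits that stabilise and restrain the catalytic subunit, and lies on the minus strand of chromosome 13 (101680563 to 101768217). It had the most regions of the 8 genes, 27, with 12 in all 4 libraries, 9 in 1 and 3 in WT only. The strongest, 66.0 kb into the gene in intron 5 (chr13:101701735-101702827), had a fold enrichment of 29.9 and 56.1 in WT and 39.5 and 38.4 in Il2ramut/mut and percentiles of 96.9 and 98.5 in WT and 97.8 and 97.9 in Il2ramut/mut. WT replicate 2 was the highest and WT replicate 1 the lowest, so the genotypes overlapped, with a fitted difference of -0.07 (SE 0.17, limma adjusted p = 0.920). At the promoter of the long transcript (chr13:101766836-101768893), fold enrichment was 21.8 and 38.4 in WT and 35.0 and 30.1 in Il2ramut/mut. Its percentiles were 94.8 and 96.7 in WT and 97.2 and 96.7 in Il2ramut/mut, and the lower Il2ramut/mut rank was above the higher WT rank by less than 0.1 percentile points, with a fitted difference of 0.19 (SE 0.17, limma adjusted p = 0.760) that did not pass the test. With equal numbers of peaks the ranks overlapped. A single library, WT replicate 2, held a peak of 7 reads at another start site inside the gene.

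Within the introns of Pik3r1, nearby regions had fitted differences of opposite sign. At 60.7 kb (chr13:101707170-101708191), which held the WT-unique OCR of this gene, reads at the summit were 14 and 19 in WT and 13 and 10 in Il2ramut/mut, and both WT libraries were higher, with a fitted difference of -0.51 (SE 0.25, limma adjusted p = 0.611). At 54.3 kb (chr13:101713691-101714259), reads were 10 and 15 in WT and 16 and 20 in Il2ramut/mut, and both Il2ramut/mut libraries ranked higher. Its fitted difference, 0.51 (SE 0.27, limma adjusted p = 0.617), was among the 3 highest at the 8 loci. Neither passed the test. The 3 regions called in WT only were all intronic and weak. They lay at chr13:101695814-101696305 with 8 and 8 reads, at chr13:101718804-101719179 with 9 and 8 reads (the window with the STAT5 word), and at chr13:101736602-101736973 with 7 and 9 reads. For a count of 8, the exact Poisson 95% interval runs from 3.45 to 15.8, and it covers counting error only.

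Pik3ip1 encodes a transmembrane protein that binds and inhibits PI3K, and lies on chromosome 11 (3330401 to 3342971). Although the gene is the shortest of the 8 at 12.6 kb, it had 1 of the 3 most accessible regions. This region (chr11:3331639-3332851) lay within 1 kb of one of its start sites and of a start of the predicted gene Gm12592, and it held the FOXO and KLF words shown above. Its fold enrichment was 59.8 and 104 in WT and 69.5 and 71.9 in Il2ramut/mut, the −log10 p was 196 and 389 in WT and 260.3 and 255 in Il2ramut/mut, and the percentile was 99.5 and 99.8 in WT and 99.5 and 99.5 in Il2ramut/mut. WT replicate 2 stood above the other 3, and the fitted difference was -0.16 (SE 0.12, limma adjusted p = 0.713).

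All 5 Pik3ip1 regions called in the 4 libraries had a fitted difference below 0, that is WT higher, and Tsc1, with a single region, was the only other gene of which this was true. The lowest unadjusted p at the 8 loci, 0.014, was at an intron 5 region 5.6 kb from the start (chr11:3335630-3336469). Its fold enrichment was 35.0 and 51.5 in WT and 26.0 and 33.5 in Il2ramut/mut, and its percentiles were 97.8 and 98.2 in WT and 95.5 and 97.3 in Il2ramut/mut. Both WT ranks were above both Il2ramut/mut ranks. The fitted difference was -0.51 (SE 0.15, limma adjusted p = 0.582), which is not past the threshold, and it ranged from -0.65 to -0.35 when 1 library was left out. The region at the annotated gene start (chr11:3330336-3331315) was much weaker than its neighbour, with summit reads of 15 and 33 in WT and 13 and 18 in Il2ramut/mut. It held a WT-unique OCR with an IDR of 0.00025, while the IDR in Il2ramut/mut, 0.0508, was just above the threshold of 0.05. Its fitted difference, -0.54 (SE 0.32, limma adjusted p = 0.655), was among the 3 lowest of the 48, but WT replicate 1 (percentile 83.2) lay below Il2ramut/mut replicate 2 (87.0), and the difference was -0.25 without WT replicate 2 and -0.27 without Il2ramut/mut replicate 1.

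The other WT-unique OCR of Pik3ip1, downstream of the gene (chr11:3344831-3345369), had summit reads of 17 and 18 in WT and 20 and 12 in Il2ramut/mut. Il2ramut/mut replicate 1 had the most reads of the 4 libraries there, but not the highest fold enrichment. Fold enrichment was 9.12 and 9.60 in WT and 9.42 and 6.32 in Il2ramut/mut, and the IDR in Il2ramut/mut was 0.062. A mutant-unique OCR in intron 5 (chr11:3334902-3335435) had summit reads of 9 and 16 in WT and 12 and 11 in Il2ramut/mut, with an IDR of 0.049 in Il2ramut/mut and 0.206 in WT. A region 17.1 kb upstream (chr11:3313210-3313569) was called in WT only, with 8 and 11 reads.

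Inpp5d encodes SHIP1, a phosphatase of blood cells that removes a phosphate from the lipid product of PI3K. It lies on chromosome 1 (87620312 to 87720507). It had 12 regions, 6 of them in all 4 libraries. Its most accessible region was not the promoter but a site in intron 1, 6.3 kb from the start (chr1:87625923-87627024), the window with the ETS word. There fold enrichment was 69.4 and 106 in WT and 75.8 and 87.0 in Il2ramut/mut, the −log10 p was 237 and 398 in WT and 290.0 and 323 in Il2ramut/mut and the percentiles were 99.7 and 99.8 in WT and 99.6 and 99.8 in Il2ramut/mut. Fold enrichment of WT replicates 1 and 2 enclosed both Il2ramut/mut values, and the fitted difference was -0.08 (SE 0.10, limma adjusted p = 0.825). The promoter (chr1:87620023-87622226) had a fold enrichment of 13.2 and 22.7 in WT and 13.9 and 17.0 in Il2ramut/mut, with a fitted difference of -0.10 (SE 0.21, limma adjusted p = 0.903).

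Away from these, 2 Inpp5d regions had the lowest fitted differences of the 48. At 30.6 kb in intron 2 (chr1:87650548-87651117), reads were 17 and 30 in WT and 10 and 17 in Il2ramut/mut, and the percentile was 85.1 and 89.3 in WT and 55.5 and 86.3 in Il2ramut/mut. Il2ramut/mut replicate 1 alone stood apart, whereas replicate 2 equalled WT replicate 1 in reads. The fitted difference was -0.81 (SE 0.35, limma adjusted p = 0.589), and it was -0.34 without Il2ramut/mut replicate 1 and -1.26 without replicate 2. This region held a WT-unique OCR (IDR 9.4e-05 in WT and 0.488 in Il2ramut/mut). At 12.5 kb upstream (chr1:87607080-87608210), fold enrichment was 20.3 and 31.3 in WT and 13.5 and 18.5 in Il2ramut/mut, and the percentiles of 94.2 and 95.4 in WT and 89.8 and 93.7 in Il2ramut/mut did not overlap between genotypes. The difference there was -0.62 (SE 0.20, limma adjusted p = 0.582), with an unadjusted p of 0.019, and it ranged from -0.82 to -0.41 when 1 library was left out. None of the 6 words was in the window of either region.

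Another 2 unique OCRs of Inpp5d lay in regions that 1 library of the other genotype lacked. In intron 2 at chr1:87639970-87640441, reads were 12 and 16 in WT, 9 in Il2ramut/mut replicate 2 and not called in replicate 1 (WT-unique). At 6.2 kb upstream (chr1:87613905-87614284), reads were 12 and 16 in Il2ramut/mut, 9 in WT replicate 2 and not called in WT replicate 1 (mutant-unique). The gene therefore had OCRs of both kinds, 2 in WT and 1 in Il2ramut/mut, and no region called in both libraries of 1 genotype alone.

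Phlpp1 encodes a phosphatase that removes an activating phosphate from AKT, and it spans 222 kb of chromosome 1 (106171752 to 106394250). Its promoter (chr1:106171070-106173447), shared with a start of the predicted gene Gm20753, was among the most accessible regions of every library. The fold enrichment was 58.3 and 97.5 in WT and 82.1 and 98.2 in Il2ramut/mut, the −log10 p was 190.2 and 361 in WT and 320.2 and 375 in Il2ramut/mut, and the percentile was 99.4 and 99.7 in WT and 99.7 and 99.9 in Il2ramut/mut. Both Il2ramut/mut libraries ranked above both WT libraries, though in fold enrichment WT replicate 2 lay between them. The fitted difference was 0.25 (SE 0.12, limma adjusted p = 0.612). Phlpp1 was the only gene of the 8 whose median fitted difference was above 0, at 0.24 over 5 regions, and 1 of its 5 regions was lower in Il2ramut/mut.

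Phlpp1 also had the only region called in both Il2ramut/mut libraries and in neither WT library, in intron 3 (chr1:106316963-106317237), with 10 and 9 reads and a fold enrichment of 4.93 and 4.86. Its window held the RUNX word at 2 positions. A mutant-unique OCR further along the gene (chr1:106376026-106376429) had 14 and 13 reads in Il2ramut/mut, 13 in WT replicate 2 and no call in WT replicate 1. In the other direction, a region 9.0 kb upstream (chr1:106162656-106162964) was called in WT only, with 8 and 11 reads. The region second in rank at Phlpp1, 19.7 kb upstream (chr1:106151710-106152399), had fold enrichments of 14.7 and 23.7 in WT and 15.3 and 21.9 in Il2ramut/mut, which did not separate the genotypes.

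Tsc1 encodes a scaffold of the TSC complex, the brake on mTOR that AKT releases, and lies on chromosome 2 (28641228 to 28691167). It had 3 regions only. The promoter (chr2:28640451-28641899) was called in all 4 libraries, where fold enrichment was 21.8 and 28.3 in WT and 25.1 and 20.4 in Il2ramut/mut and the percentile was 94.8 and 94.7 in WT and 95.2 and 94.4 in Il2ramut/mut. The genotypes overlapped, and the fitted difference was -0.09 (SE 0.18, limma adjusted p = 0.889). A region 18.5 kb upstream (chr2:28622542-28622920), within 1 kb of a start of the neighbour Gfi1b, was called in WT only with 9 and 8 reads, and the remaining region was called in 1 library.

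Akt1 encodes the kinase at the centre of the pathway and lies on the minus strand of chromosome 12 (112653821 to 112674884). Of its 9 regions, 5 were called in all 4 libraries. The strongest, 30.2 kb from the gene start (chr12:112644108-112645539), lay beyond its end at a start of the neighbour Siva1, with fold enrichments of 54.2 and 70.7 in WT and 53.8 and 65.6 in Il2ramut/mut and a fitted difference of -0.06 (SE 0.12, limma adjusted p = 0.888). At the Akt1 start there were 2 regions in all 4 libraries. The upper one (chr12:112675216-112675765) had a fold enrichment of 15.7 and 19.7 in WT and 14.8 and 13.1 in Il2ramut/mut, the other, just inside the gene (chr12:112673545-112674968), of 6.08 and 6.57 in WT and 5.38 and 4.37 in Il2ramut/mut. Both WT libraries ranked above both Il2ramut/mut libraries in each, with fitted differences of -0.26 (SE 0.20, limma adjusted p = 0.715) and -0.35 (SE 0.23, limma adjusted p = 0.679). The second of these held a WT-unique OCR on 8 to 12 reads per library (IDR 0.029 in WT and 0.428 in Il2ramut/mut). Another promoter region was called in 3 libraries, with 12 reads in WT replicate 1 and 9 in each Il2ramut/mut library.

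Towards the neighbour Zbtb42, 4.5 kb upstream of Akt1 (chr12:112678546-112679623), reads were 6 and 14 in WT and 11 and 17 in Il2ramut/mut. The fitted difference, 0.52 (SE 0.38, limma adjusted p = 0.706), was the second highest at the 8 loci. It rested on WT replicate 1, since it was 0.081 without that library, and it was 0.14 without Il2ramut/mut replicate 2.

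Sgk1 encodes a kinase related to AKT that is itself induced by many stimuli, and its longest model spans chromosome 10 from 21882184 to 21999903 with start sites at both ends. It had 18 regions, 9 of them in all 4 libraries and 6 within 1 kb of a start site. The strongest was at the start sites near the end of the model (chr10:21994006-21995027), where fold enrichment was 23.8 and 31.8 in WT and 25.6 and 26.7 in Il2ramut/mut and the percentile was 95.5 and 95.5 in WT and 95.3 and 96.1 in Il2ramut/mut. The genotypes overlapped, with a fitted difference of -0.04 (SE 0.14, limma adjusted p = 0.943). At the far start (chr10:21882023-21882709), the signal was low, and both WT values lay above both Il2ramut/mut values. Reads were 10 and 14 in WT and 9 and 8 in Il2ramut/mut, the percentile was 70.7 and 78.5 in WT and 39.1 and 46.7 in Il2ramut/mut, and the fitted difference was -0.52 (SE 0.20, limma adjusted p = 0.582), with an unadjusted p of 0.041. This region held a WT-unique OCR with an IDR of 0.045, close to the threshold.

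The highest fitted difference of the 48 regions, 0.60 (SE 0.28, limma adjusted p = 0.606), was in intron 3 of Sgk1 (chr10:21975313-21975784). Reads were 14 and 12 in WT and 23 and 20 in Il2ramut/mut, and the percentile was 81.9 and 74.5 in WT and 87.3 and 88.2 in Il2ramut/mut. Both Il2ramut/mut libraries were above both WT libraries in each measure, and the region held a mutant-unique OCR (IDR 0.00011, against 0.093 in WT). The next region, less than 1 kb further on (chr10:21976203-21976735), had summit reads of 21 and 22 in WT and 21 and 14 in Il2ramut/mut and a fitted difference of -0.33 (SE 0.29, limma adjusted p = 0.755), so that neighbours differed in sign here too. A region 13.7 kb upstream of the gene (chr10:21868258-21868637) was called in WT only, with 10 and 9 reads. Second in rank at Sgk1 was an intron 1 region with FOXO and RUNX words (chr10:21905498-21906266), where fold enrichments were 16.2 and 27.8 in WT and 20.6 and 20.4 in Il2ramut/mut and the genotypes overlapped. The other 4 regions near Sgk1 start sites were called in 1 to 3 libraries each, with 7 to 16 reads.

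**Figure D3:**
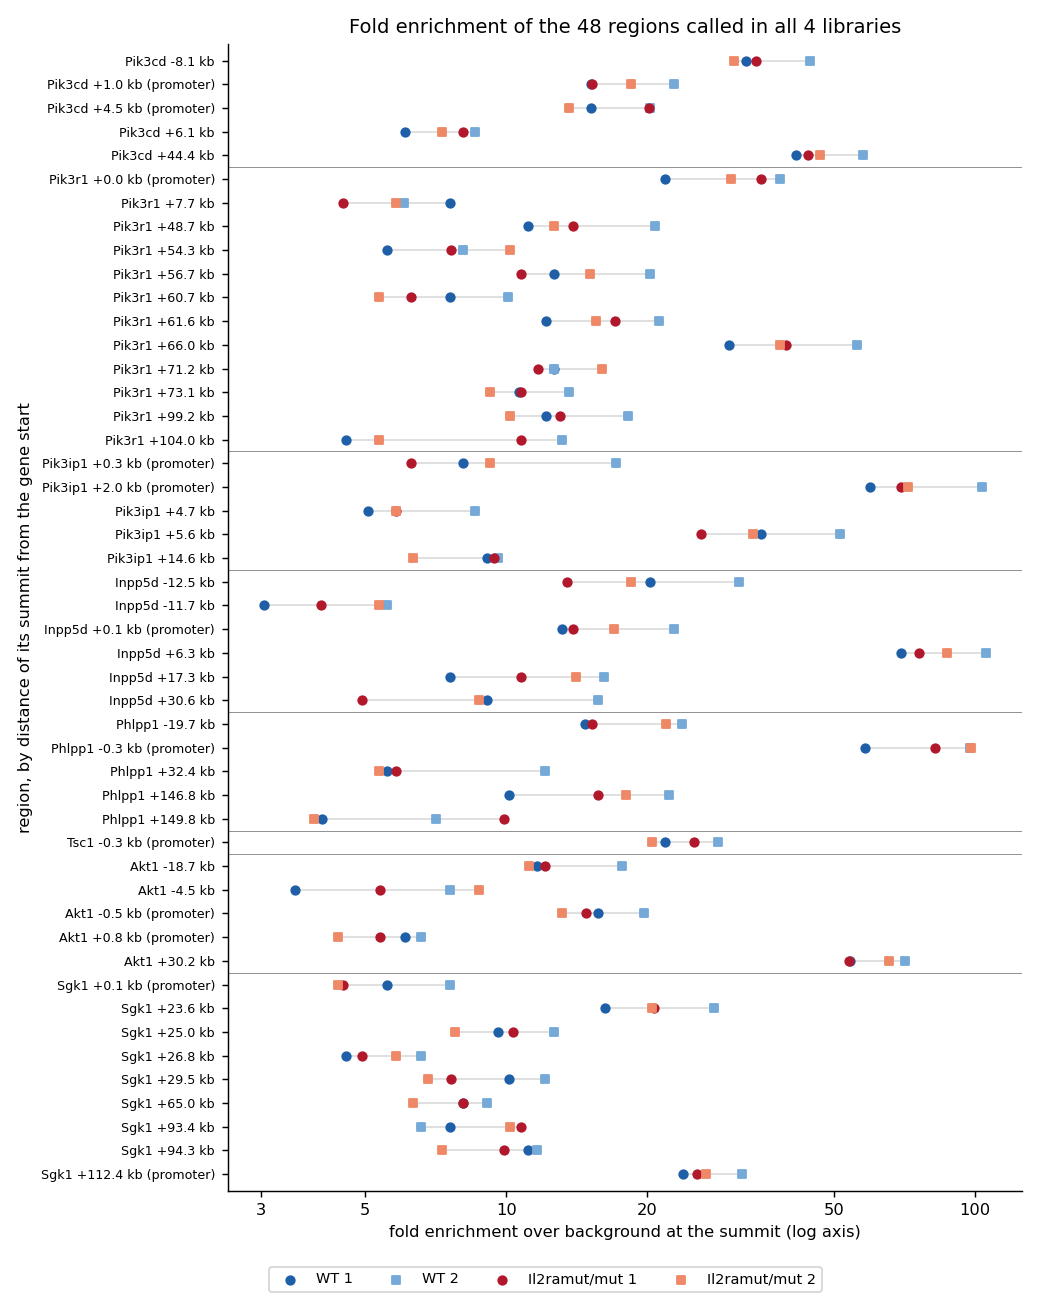
Fold enrichment over background at the summit (x axis, log scale) of the 48 regions called in all 4 libraries, one row per region, ordered by gene and distance from the gene start. Circles and squares are replicates 1 and 2, blue for WT and red to orange for Il2ramut/mut. WT replicate 2 was the rightmost point in 41 of the 48 rows, and values ran from 3.04 to 106. The values are not normalized. Over all regions called in 4 libraries, WT replicate 2 also had the highest median log2 fold enrichment, 3.41. It was 2.93 in WT replicate 1 and 3.09 and 3.13 in Il2ramut/mut.

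**Figure D4:**
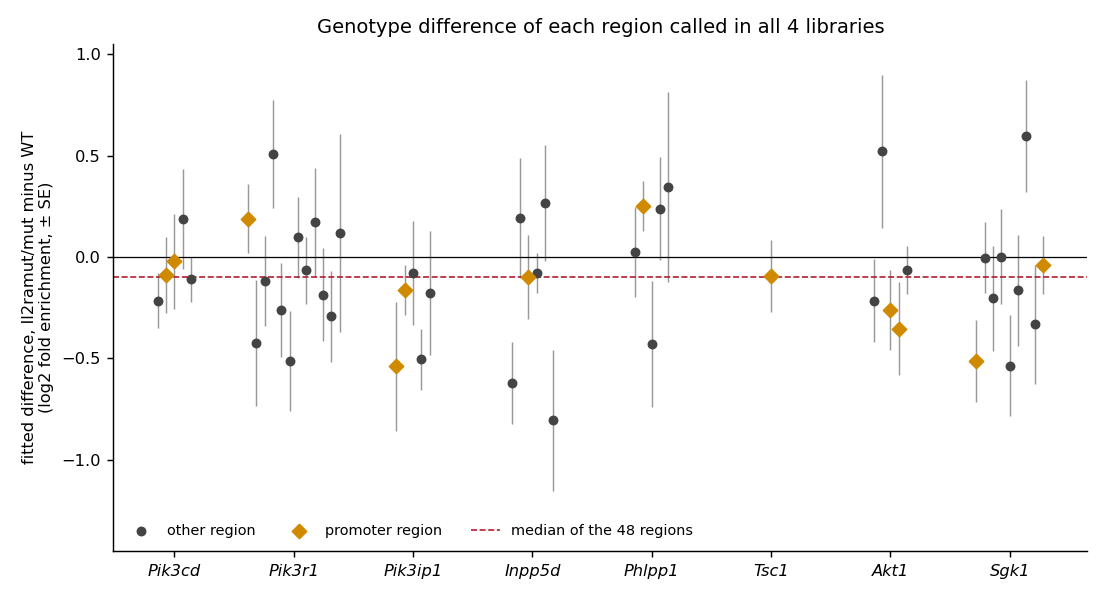
Fitted difference between genotypes (y axis, log2 fold enrichment of Il2ramut/mut minus WT, bars ± SE) for the same 48 regions by gene (x axis), with promoter regions as diamonds and the median of the 48, -0.10, as a dashed line. Points lay on both sides of 0 at 6 of the 8 genes, and all were below 0 at Pik3ip1 and Tsc1.

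By their most accessible promoter region, taken in each library apart, the genes fell into 3 tiers that held in all 4 libraries. Phlpp1 (percentiles 99.4 to 99.9) and Pik3ip1 (99.5 to 99.8) stood highest, and their ranges overlapped. In both WT libraries Pik3ip1 ranked above Phlpp1 (99.46 against 99.42, and 99.77 against 99.72). In both Il2ramut/mut libraries it ranked below (99.50 against 99.73, and 99.54 against 99.87). This order was not tested. Pik3r1 (94.8 to 97.2), Sgk1 (95.3 to 96.1) and Tsc1 (94.4 to 95.2) followed, Sgk1 above Tsc1 in all 4 libraries and Pik3r1 overlapping each of them. Pik3cd (91.5 to 93.7), Inpp5d (90.0 to 93.0) and Akt1 (90.7 to 91.9) came last and overlapped as well. For Pik3cd the region differed between libraries. It was the alternative start 4.5 kb inside the gene in Il2ramut/mut replicate 1, and the gene start in WT replicate 2 and Il2ramut/mut replicate 2. The same values were compared with those of 34 other genes of the pathway. Of these, the promoter most like that of Pik3ip1 was Mtor's, with a mean absolute difference of 0.074 percentile points over the 4 libraries. It was Ppp2r1a's for Phlpp1 (0.124), Pik3r2's for Sgk1 (0.341) and for Pik3r1 (0.826), Phlpp2's for Pik3cd (0.613), Inpp4b's for Akt1 (0.627), Mlst8's for Tsc1 (0.710) and Deptor's for Inpp5d (0.967).

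The 34 other genes, which comprise further PI3K subunits, lipid and protein phosphatases, kinases, mTOR and TSC components and AKT targets, held 325 distinct regions. Of these, 139 (42.8%) were called in all 4 libraries, 18 (5.54%) in both WT libraries only and 6 (1.85%) in both Il2ramut/mut libraries only. The share of regions called in WT only was thus above the genomic 2.70% here as well. The same limit holds, as 61.3% of all merged regions were called in a single library. Among the 139, both WT ranks were above both Il2ramut/mut ranks at 31 (22.3%, against 12.6% in the genome). They were below them at 29 (20.9%, against 26.2%). The fitted difference was below 0 at 88 (63.3%, against 49.4% in the genome), with a median of -0.09. None passed an adjusted p of 0.05. At an unadjusted p under 0.05, 13 of the 139 were higher in WT and 6 in Il2ramut/mut, against 4.37% and 4.18% of all regions. All genes of this list but Pik3r6 had a promoter region in all 4 libraries. Counted by gene, the list held 16 WT-unique and 12 mutant-unique OCRs. Their share of all OCRs at these genes was not taken. Unique OCRs within 1 kb of a start site were found at 2 genes, and both were mutant-unique. These genes were Inppl1, which encodes SHIP2, and Foxo3, a FOXO factor that AKT inactivates. No difference between the 8 genes and this list was tested.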

How the data were processed

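ATAC-seq libraries of LN Treg cells, 2 WT and 2 Il2ramut/mut, grouped by the labels, were analysed from the peak list of each library. The tools named in the submitters' processing notes are Trim Galore (0.3.7), BWA (0.7.13), SAMtools (0.1.19), Picard (1.92) and MACS2 (2.1.0), with build mm10. Per the labels and the methods, the authors removed duplicates and mitochondrial reads and called peaks per library. The deposited lists give a score, a fold enrichment ratio over background at the summit, and −log10 p and −log10 q values. They hold no read counts. Reads at a summit were derived here from the fold enrichment, the background being 1 constant per library with 1 read added to both. Of the peaks with a fold enrichment below 100, 100% gave a whole number within 0.05.

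Peaks were joined by 1 bp overlap, and each library's strongest peak gave the region its values. Gene models were GENCODE vM21 basic. Promoter regions lay within 1 kb of a start site of the gene itself, and introns were numbered along the protein-coding transcript with the longest span. Regions called in all 4 libraries were compared with limma (3.58.1, R 4.3.3; eBayes with trend, two-sided, Benjamini-Hochberg over 38426 regions). OCRs were called by IDR (at most 0.05) on −log10 p ranks with ties broken by a fixed seed, in Python (3.11.15). Named were all 8 genes, their promoter regions, the 2 highest-ranked regions, regions called in 1 genotype only, unique OCRs, and the 3 largest differences per direction. Other regions were added after their values were seen. The genes and lists were chosen with earlier results of these data known. Equal replicate numbers were not treated as pairs, since nothing says that they share a litter, batch or day. After quantile normalization, deviations of same-numbered libraries correlated by r = 0.011 over regions. That value cannot show a shift of whole libraries, which normalization removes. The merging, IDR and limma steps were tested on simulated data. The p-values test a difference between genotypes against limma's estimate of the spread between the 2 libraries per genotype, which is pooled over regions. Alternatives comprised a stricter q (−log10 q of at least 3), 50% overlap, narrower windows (5 kb or none), equal peak numbers, other scalings and measures, other OCR definitions, a replicate block and leaving out each library.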

Additional observations from a re-analysis of the deposited data

How the results depend on the processing

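With 2 libraries per genotype, 0 regions passed the adjusted threshold at the 8 loci in each alternative, so a stable lack of calls shows little, and weak regions near 5 reads limit every count. The 8 regions called in WT only were 4 of 94 (4.26%) with 5 kb and 3 of 82 (3.66%) with no flank, and 10 to 28 when 1 library was left out. The count of 10, without Il2ramut/mut replicate 1, was 8.93% against 4.93% in the genome. The 1 region called in Il2ramut/mut only became 2 at a −log10 q of at least 3 (2.04%, against 4.22% in the genome). It became 2 at 50% overlap (1.65%, against 2.91%) and 2 to 8 when 1 library was left out, with the shares given above. WT-unique and mutant-unique OCRs numbered 18 and 7 with no IDR step, and 0 and 0 when a called peak in the other genotype ended uniqueness. With no IDR step, 50 WT OCRs were not unique. The genomic share was not taken for that definition, so 18 and 7 cannot be read as an excess of either genotype. Regions at the 8 loci with an unadjusted p under 0.05, 3 as reported, were 5 with median scaling and 1 with no normalization, and regions of the genome with an adjusted p under 0.05, 0 as reported, were 318, 14 and, with a −log10 q of at least 3, 1. The cause was not tested. With the replicate block, 0 regions at the 8 loci and 0 in the genome passed the adjusted threshold. In that fit, 4 at the 8 loci had an unadjusted p under 0.05, and the median difference at the 8 loci stayed at -0.10. The genomic share at an unadjusted p under 0.05 was not taken in these settings. The counts of 5, 1 and 4 therefore have no background to be read against. The same-numbered libraries share only a number. The median difference at the 8 loci was below 0 in each alternative on a log2 scale, from -0.18 to -0.070. With equal numbers of peaks, chosen after seeing the data, both WT ranks were higher at 15 regions instead of 9. The 8 regions followed through the alternatives, by size of difference or an unadjusted p under 0.05, kept their sign in each of 87 values. They were picked by their values in these same libraries, so the kept signs show little. A fit for the Akt1 region 4.5 kb upstream at a −log10 q of at least 3 could not be had, as not all libraries kept its peak.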

Other observations

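The summit of a region did not always lie at the same base in the 4 libraries. Of the 48 regions at the 8 loci called in all 4, 27 had summits within 100 bp of each other, with a median spread of 83 bp. The widest spread, 1264 bp, was at the Inpp5d promoter, and that of Pik3cd had 1113 bp, while the summits at the Sgk1 region with the strongest signal lay within 12 bp. At broad promoters, the value of a library may thus come from a different site than in another library. Of the 48 regions called everywhere, 12 lay within 1 kb of a start site of the gene itself. Of the 8 called in WT only, 0 did, although that of Tsc1 lay near a start of Gfi1b. These 8 comprised 3 in introns, 4 upstream and 1 downstream of the gene.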
